A study of Rattus norvegicus with 7 samples.

Results

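Genes of mitochondrial and peroxisomal fatty acid oxidation were followed in rat hippocampus and hypothalamus after 6 weeks of feeding with docosahexaenoic acid (DHA), a long omega-3 fatty acid of brain membranes. The set was a list of 33 gene symbols, chosen by function, with earlier results of these data known. Of these, 30 were found in the hippocampus table, 31 in the hypothalamus table and 30 in both, out of 15805 symbols shared by the tables. The animals were male Sprague Dawley rats, 2 months old when the diet was assigned. There were 4 DHA hippocampus libraries and 3 DHA hypothalamus libraries, each from poly-A selected RNA. Every library came from a DHA-fed animal and libraries of rats on chow were not analysed here, so no diet effect was estimated. Etfb and Acaa1a were matched in neither table, Eci2 was matched only in hypothalamus, and none of these is compared between tissues.

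Fatty acids are broken down by beta-oxidation, which shortens an acyl chain attached to coenzyme A from its carboxyl end. In mitochondria the chain first enters as a carnitine ester: carnitine palmitoyltransferase 1 makes the ester outside, a carrier exchanges it across the inner membrane, and carnitine palmitoyltransferase 2 restores the coenzyme A form inside. Peroxisomes shorten very long and branched chains and also carry out the last step of DHA synthesis, a single round of oxidation of a longer precursor, and they import their enzymes from the cytosol with the help of peroxins. Brain tissue oxidises fatty acids at a low rate compared with heart or liver, and much of this is attributed to astrocytes.

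Upstream sequences of the members were read from RefSeq (rat assembly GRCr8) for 29 of the 33 symbols, taking the 250 bases before the start site that the table lists. The files themselves carry no coordinates, and the build named in the submitters' processing notes is rn5, so these windows serve only as sequence. In 23 of the 29 windows (79.3%) a GC box (GGGCGG on either strand) was present, against 38.9% of 21842 windows of protein-coding genes. The windows of Hadha and Hadhb overlap, and the GC box of the Hadha window lies in both, so that site is counted for each gene. The CCAAT box (CCAAT) was found in 9 windows (31.0%, against 35.0% of all), the ETS site (CCGGAAG) in 3 (10.3%, against 9.01%) and the TATA box (TATAAA) in 2 (6.90%, against 12.1%). No window held the direct repeat bound by PPAR receptors (AGGTCA in tandem with 1 base between), the ERR site TCAAGGTCA or the E-box CACGTG, which occur in 0.0229%, 0.320% and 6.16% of all windows. The palindromic NRF1 site was found in no member window either, and in 0.971% of all windows. All motifs were searched on both strands as exact letters, and the PPAR repeat and the ERR site share the letters AGGTCA. Windows of the members held a median of 12 CG dinucleotides, against 8 over all windows.

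The windows of 4 members are printed, each 5′ to 3′ on the strand of its gene, with matches to the motifs above in capitals. Hadha is shown because its partner Hadhb starts 301 bases away on the opposite strand, so that the window lies between the starts of both subunits of the same complex. Pex14 and Pex7 are shown as the members with the widest difference towards each tissue, and Crat as a gene of 1 of the pairs of related members whose ratio separated the tissues. The windows are chr6:31907551-31907800 (plus strand), chr3:34087100-34087349 (minus), chr5:164819353-164819602 (minus) and chr1:16466305-16466554 (minus).
Hadha: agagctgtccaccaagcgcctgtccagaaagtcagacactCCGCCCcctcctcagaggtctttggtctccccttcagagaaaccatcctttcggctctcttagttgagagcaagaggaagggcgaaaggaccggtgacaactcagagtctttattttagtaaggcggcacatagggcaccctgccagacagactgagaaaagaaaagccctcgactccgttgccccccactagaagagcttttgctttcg
Crat: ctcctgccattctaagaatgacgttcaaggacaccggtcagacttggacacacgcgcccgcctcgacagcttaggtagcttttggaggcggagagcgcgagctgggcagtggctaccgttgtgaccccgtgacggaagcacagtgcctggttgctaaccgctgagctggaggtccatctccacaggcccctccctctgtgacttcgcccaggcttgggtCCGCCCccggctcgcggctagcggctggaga
Pex14: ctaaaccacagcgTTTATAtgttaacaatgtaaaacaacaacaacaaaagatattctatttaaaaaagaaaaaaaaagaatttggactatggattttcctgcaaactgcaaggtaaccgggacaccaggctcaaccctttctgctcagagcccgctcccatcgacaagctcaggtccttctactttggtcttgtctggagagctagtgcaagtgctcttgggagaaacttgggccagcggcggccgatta
Pex7: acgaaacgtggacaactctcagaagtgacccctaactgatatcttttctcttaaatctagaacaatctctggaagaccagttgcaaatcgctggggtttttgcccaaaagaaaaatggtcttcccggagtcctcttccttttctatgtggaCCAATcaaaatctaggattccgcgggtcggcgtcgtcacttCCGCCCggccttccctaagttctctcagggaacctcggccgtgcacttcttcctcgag
The capitals mark a GC box, read from the opposite strand, in the Hadha, Crat and Pex7 windows, a CCAAT box in the Pex7 window as well and a TATA box on the opposite strand in the Pex14 window. A letter match is a description and not evidence of binding.

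Levels are FPKM as deposited, fragment counts divided by transcript length and library size, so that genes of different length can be compared within a table. Summed FPKM of all loci were 370020 to 391349 in the hippocampus libraries and 443335 to 471484 in the hypothalamus libraries. Depth is unknown, because FPKM carries no counts. Marker genes matched the tissue labels: all 4 hippocampal markers were higher in every hippocampus library and all 5 hypothalamic markers in every hypothalamus library. Oxt was listed at 0 in all hippocampus libraries. Replicate 1 of each tissue stood apart from the other libraries at symbols with several loci. Of such loci at 5 FPKM or more in every other library of the tissue, 222 of 1338 (16.6%) were below 0.5 FPKM in hippocampus replicate 1 and 149 of 1071 (13.9%) in hypothalamus replicate 1, against at most 2 loci in any other library. Symbols with 1 locus showed this at 7 of 6248 loci in hippocampus replicate 1 and 4 of 7058 in hypothalamus replicate 1. None of these loci belongs to a member, and among the members only Echs1, Pex5 and Pex19 have more than 1 locus. Nothing in the labels says which libraries share an animal.

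The 30 shared members summed to 688, 705, 733 and 690 FPKM in hippocampus replicates 1 to 4, or 704 ± 20.6 on average (SD, n = 4). The hypothalamus libraries, in the same order, gave 1024, 829 and 863 FPKM, or 905 ± 105 on average (SD, n = 3). As a share of all FPKM this was 0.178% to 0.197% in hippocampus and 0.183% to 0.231% in hypothalamus, so the shares of the tissues overlapped. Hypothalamus replicate 1 was the high library, and without it the hypothalamic mean was 846 FPKM.

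**Figure D1:**
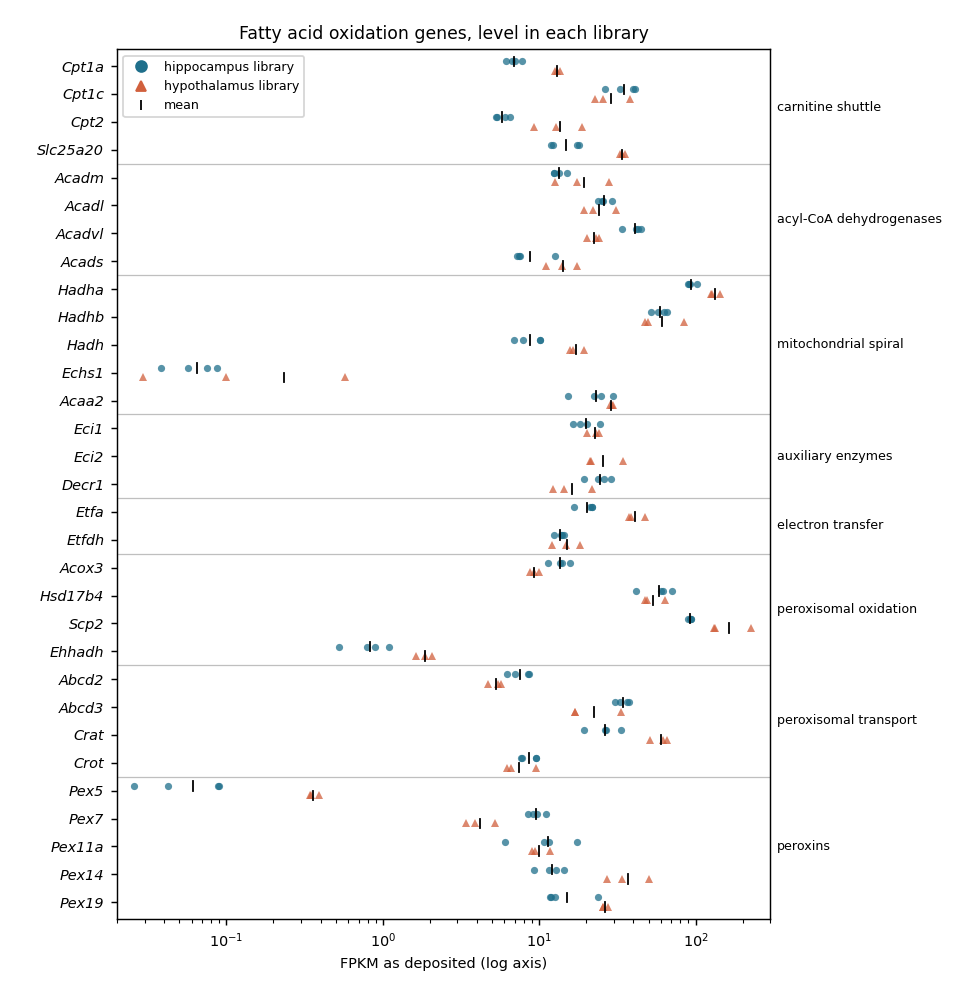
FPKM as deposited (x axis, log scale) of each member found (y axis, grouped by role), with 1 point per library (circles, 4 hippocampus; triangles, 3 hypothalamus) and the mean as a vertical tick. Hadha and Scp2 lie highest in both tissues, and Echs1 and Pex5 lie below 1 FPKM in every library.

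The most abundant members in both tissues were Hadha and Scp2. Hadha encodes the alpha subunit of the mitochondrial trifunctional protein, which carries out the later steps of each round on long chains. Scp2 encodes a peroxisomal thiolase and, from an internal start, the lipid-binding sterol carrier protein 2. Next in hippocampus were Hadhb, the thiolase-bearing beta subunit of the trifunctional protein, at 59.2 ± 6.06 FPKM (SD, n = 4), and Hsd17b4, the peroxisomal multifunctional enzyme, at 58.4 ± 12.1 FPKM (SD, n = 4). In hypothalamus Hadhb read 60.6 ± 20.8 FPKM (SD, n = 3), with Crat and Hsd17b4 next.

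The order of levels was mostly not resolved between neighbours. Ranked by mean, 3 of 29 neighbouring pairs in hippocampus and 7 of 30 in hypothalamus had libraries that did not overlap. One of them, in both tissues, was the step from Hadha or Scp2 down to Hadhb. The lowest members were Ehhadh, the peroxisomal bifunctional enzyme, then Echs1, the mitochondrial short-chain enoyl-CoA hydratase, and Pex5, the receptor for the C-terminal peroxisomal targeting signal. Echs1 read 0.0567, 0.0872, 0.0385 and 0.0756 FPKM in hippocampus and 0.575, 0.0292 and 0.0989 FPKM in hypothalamus. Pex5 read 0.0897, 0.0255, 0.0421 and 0.0882 FPKM in hippocampus and 0.343, 0.347 and 0.392 FPKM in hypothalamus. Both genes have 2 loci in each table, and the other locus reached at most 0.233 FPKM. Nearly all cells use both genes, and whether fragments were assigned to them correctly was not tested, so they are given only as listed near 0.

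To compare the tissues, the FPKM of each library were multiplied to total 1000000 over the shared symbols, and values were compared as log2(rescaled FPKM + 1), a scale that understates the change of low genes. Differences are given as hippocampus minus hypothalamus. Genes averaging 1 FPKM or more in either tissue were kept, which left 28 members and 10736 symbols in all. Ehhadh passed through hypothalamus alone. The tables appear to be separate quantification runs, so tissue and table cannot be told apart and no test was made between them. A member was counted as higher in a tissue when each of its libraries lay above each library of the other.

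By that rule 6 of the 28 members (21.4%) were higher in hippocampus, where 28.2% of all compared symbols were, and 10 (35.7%) were higher in hypothalamus, against 24.4% of all. The 10 include Ehhadh, which the filter kept because of its hypothalamic level, and with a filter of 5 FPKM, which removes it, 9 of 27 members were higher in hypothalamus, against 24.1% of all. Together 16 members separated the tissues (57.1%, against 52.6% of all). The remaining 12 overlapped. With FPKM as deposited the split was 4 to 11, against 19.0% and 35.2% of all symbols. Without hypothalamus replicate 1 it was 11 to 10, against 36.8% and 29.4%, and the 5 members added towards hippocampus were Acadl, Hadhb, Etfdh, Hsd17b4 and Crot. Without replicate 1 of both tissues it was 11 to 11, against 40.9% and 33.2%. The median difference of the members was 0.02, beside 0.05 over all compared symbols, and with FPKM as deposited these were −0.27 and −0.21. In a bulk sample fewer cells of a type and less RNA per cell cannot be told apart.

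Differences were mostly under 2-fold. Requiring a 2-fold difference of means as well left Acadvl and Pex7 towards hippocampus (14.5% of all symbols met this) and Pex14 towards hypothalamus (13.4% of all). With FPKM as deposited these became 1 and 4 members, with Pex7 alone towards hippocampus and Cpt2, Slc25a20 and Crat beside Pex14 towards hypothalamus, against 8.64% and 16.9% of all symbols. All 10 members higher in hypothalamus kept separate libraries under each of 4 scalings and under each alternative in which they were compared (17, except for Ehhadh, which the 5 FPKM filter removes), and so did 4 of the 6 higher in hippocampus (Acadvl, Acox3, Abcd2 and Pex7).

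**Figure D2:**
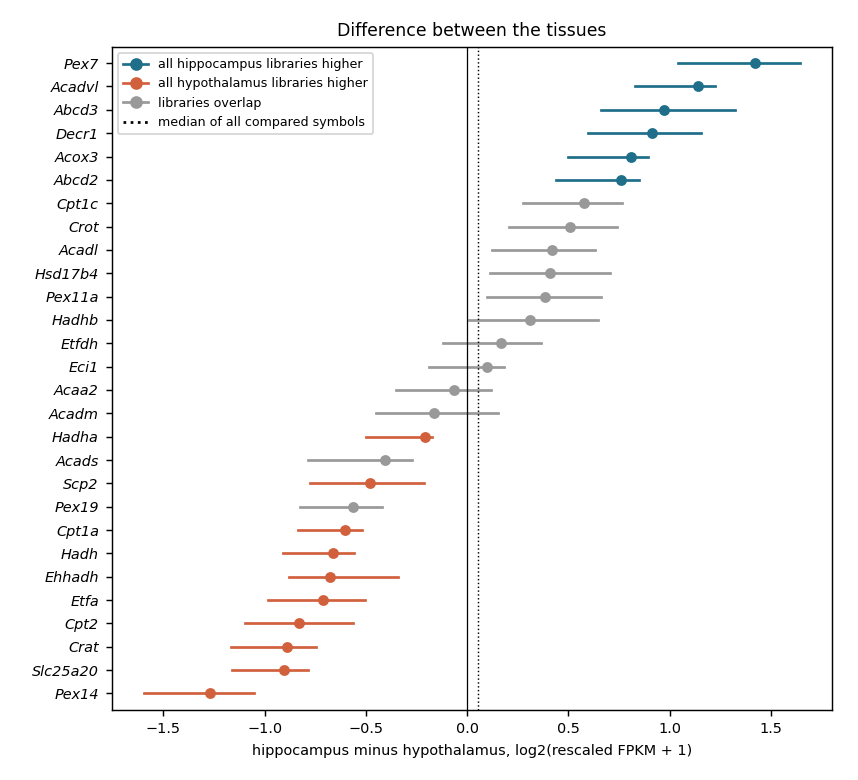
Difference between the tissues (x axis, hippocampus minus hypothalamus means of log2(rescaled FPKM + 1)) for the 28 compared members (y axis). Points are the values given in the text, bars span the lowest and highest value over all settings (each on its own scale and pseudocount), colour gives the tissue whose libraries all lay higher, and the dotted line is the median of all compared symbols, 0.05.

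Of the 4 genes of the carnitine shuttle, 3 were higher in hypothalamus (24.4% of all symbols were) and Cpt1c overlapped, its mean being higher in hippocampus. Cpt1a, the widely expressed carnitine palmitoyltransferase 1, read 7.02, 6.72, 7.71 and 6.12 FPKM in hippocampus and 12.6, 13.5 and 13.1 FPKM in hypothalamus. Cpt2, the inner-membrane enzyme, read 6.07, 5.32, 6.47 and 5.41 FPKM in hippocampus and 18.8, 12.7 and 9.21 FPKM in hypothalamus. Slc25a20, the carnitine-acylcarnitine carrier, read 12.2, 17.4, 17.9 and 11.9 FPKM in hippocampus and 35.3, 33.9 and 32.7 FPKM in hypothalamus. For each of these genes the lowest hypothalamus library exceeded the highest hippocampus library, and the rescaled differences were −0.60, −0.83 and −0.90 respectively. Within hypothalamus Cpt1a and Slc25a20 varied little, with highest-to-lowest ratios of 1.07 and 1.08, whereas Cpt2 varied 2.04-fold.

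Cpt1c, the brain isoform of the endoplasmic reticulum that has little transferase activity and senses malonyl-CoA, went the other way without separating the tissues. It read 40.9, 39.5, 32.9 and 26.3 FPKM in hippocampus and 22.8, 25.8 and 38.3 FPKM in hypothalamus. The difference was 0.57, or 0.27 with FPKM as deposited and 0.35 without replicate 1 of both tissues. Hypothalamus replicate 3 was the high library of Cpt1c in that tissue. Without that library, or without hippocampus replicate 4, no libraries overlapped after rescaling. The ratio of Cpt1c to Cpt1a within a library is free of library scaling. It was 5.82, 5.88, 4.27 and 4.30 in hippocampus and 1.82, 1.91 and 2.93 in hypothalamus. Every hippocampus ratio lay above every hypothalamus ratio, so the share of the brain isoform among both transcripts was higher in hippocampus.

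Acyl-CoA dehydrogenases carry out the first step of each mitochondrial round and divide the chain lengths among them. Acadvl, which takes very long chains, read 42.6, 41.7, 44.8 and 34.1 FPKM in hippocampus and 24.1, 20.3 and 23.1 FPKM in hypothalamus, a difference of 1.14 with every hippocampus library higher. The other 3 overlapped. Acadl, for long chains, read 25.9 ± 2.38 FPKM (SD, n = 4, hippocampus) against 24.1 ± 6.20 FPKM (SD, n = 3, hypothalamus). Acadm, for medium chains, read 13.4, 12.5, 15.0 and 12.4 FPKM in hippocampus and 28.1, 17.3 and 12.6 FPKM in hypothalamus, so that hypothalamus replicate 1 was high, and its difference of −0.16 became 0.15 without that library. Acads, for short chains, read 12.7, 7.25, 7.40 and 7.55 FPKM in hippocampus, where replicate 1 was high, and 11.0, 14.0 and 17.5 FPKM in hypothalamus. Without hippocampus replicate 1, Acads was higher in every hypothalamus library.

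Among the enzymes of the later mitochondrial steps, Hadha and Hadh were higher in hypothalamus while Hadhb and Acaa2 overlapped. Hadha read 91.1, 88.9, 91.5 and 101.7 FPKM in hippocampus and 128, 126 and 143 FPKM in hypothalamus. Its rescaled difference was small at −0.21, although no library overlapped, and its size rested on the scaling: it was −0.50 with FPKM as deposited, −0.36 with upper-quartile scaling and −0.33 with median scaling. Hadh, the dehydrogenase for shorter chains, read 10.1, 7.92, 10.2 and 6.91 FPKM in hippocampus and 16.4, 19.3 and 15.8 FPKM in hypothalamus, a difference of −0.66. Hadhb read 51.6, 65.3, 62.7 and 57.2 FPKM in hippocampus and 84.5, 49.7 and 47.6 FPKM in hypothalamus. Hypothalamus replicate 1 was the high library for Hadhb but not for Hadha, so the ratio of Hadha to Hadhb was 1.52 there and 2.54 and 3.01 in the other hypothalamus libraries. In hippocampus that ratio ran from 1.36 to 1.78, and the tissues overlapped through hypothalamus replicate 1. Acaa2, the mitochondrial thiolase for medium chains, read 24.8, 22.6, 29.8 and 15.3 FPKM in hippocampus and 29.1, 28.2 and 29.7 FPKM in hypothalamus. It was the steadiest hypothalamic member, with a highest-to-lowest ratio of 1.05, and varied 1.94-fold in hippocampus.

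Unsaturated chains need auxiliary enzymes that move or reduce double bonds, and DHA carries many of these bonds. Decr1, the mitochondrial dienoyl-CoA reductase, was higher in hippocampus, at 26.1, 23.8, 28.8 and 19.4 FPKM against 21.7, 14.5 and 12.2 FPKM in hypothalamus, a difference of 0.91, or 0.60 with FPKM as deposited. That separation depended on the scaling, since hippocampus replicate 4 and hypothalamus replicate 1 overlapped in FPKM as deposited. Eci1, an enoyl-CoA isomerase, overlapped, at 19.8 ± 3.55 FPKM (SD, n = 4, hippocampus) against 22.6 ± 2.05 FPKM (SD, n = 3, hypothalamus). Its difference of 0.10 changed sign under each of the 3 other scalings. Eci2, a second isomerase, read 34.1, 21.1 and 21.5 FPKM in hypothalamus, replicate 1 again being the high library.

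Electrons from the dehydrogenases pass through the electron transfer flavoprotein and its ubiquinone oxidoreductase. Etfa, the alpha subunit of the flavoprotein, was higher in hypothalamus, at 47.6, 38.8 and 37.2 FPKM against 16.6, 21.0, 21.9 and 21.7 FPKM in hippocampus, a difference of −0.71. Etfdh, the oxidoreductase, overlapped, at 15.1 ± 3.09 FPKM (SD, n = 3, hypothalamus) against 13.6 ± 0.898 FPKM (SD, n = 4, hippocampus). The direction of Etfdh, 0.17 towards hippocampus after rescaling, turned with FPKM as deposited and without hypothalamus replicate 3.

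In peroxisomal oxidation the members differed in opposite directions. Acox3, an acyl-CoA oxidase for branched chains, was higher in hippocampus, at 11.4, 13.6, 15.7 and 13.9 FPKM against 9.27, 9.98 and 8.74 FPKM, a difference of 0.81, or 0.50 with FPKM as deposited. Scp2 was higher in hypothalamus, at 226, 134 and 131 FPKM against 93.9, 92.9, 92.5 and 88.9 FPKM, a difference of −0.48. Without hypothalamus replicate 1 the libraries of Scp2 still did not overlap, and that difference shrank to −0.21, while with FPKM as deposited and all libraries it was −0.78. Scp2 was also the steadiest hippocampal member, with a highest-to-lowest ratio of 1.06. Hsd17b4, which acts on the DHA precursor, read 41.6, 61.5, 60.0 and 70.5 FPKM in hippocampus and 63.7, 48.9 and 47.6 FPKM in hypothalamus, and the tissues overlapped. Ehhadh was far lower, at 0.789, 0.523, 0.889 and 1.10 FPKM in hippocampus and 2.08, 1.85 and 1.62 FPKM in hypothalamus, with every hypothalamus library above. Hsd17b4 exceeded Ehhadh by 52.7 to 118 times in the hippocampus libraries and by 26.4 to 30.7 times in the hypothalamus libraries, without overlap.

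Peroxisomal membrane transporters were higher in hippocampus, and a carnitine acyltransferase was higher in hypothalamus. Abcd3, the most abundant ABC transporter of the peroxisomal membrane here, read 32.6, 36.5, 30.6 and 37.5 FPKM in hippocampus and 33.4, 17.0 and 16.9 FPKM in hypothalamus, a difference of 0.97. Hypothalamus replicate 1 was again high, and with FPKM as deposited it overlapped the hippocampus libraries. Abcd2, a transporter of very long and polyunsaturated chains, read 7.04, 8.46, 6.18 and 8.64 FPKM against 5.73, 4.72 and 5.46 FPKM, a difference of 0.76, or 0.44 with FPKM as deposited. Crat, carnitine acetyltransferase, read 33.3, 26.6, 26.4 and 19.3 FPKM in hippocampus and 51.3, 62.3 and 65.4 FPKM in hypothalamus, a difference of −0.89. Crot, which makes carnitine esters of medium chains shortened in peroxisomes, overlapped, at 8.66 ± 1.08 FPKM (SD, n = 4, hippocampus) against 7.45 ± 1.80 FPKM (SD, n = 3, hypothalamus). The ratio of Crat to Crot was 4.25, 3.48, 2.76 and 2.01 in hippocampus and 5.39, 9.39 and 10.5 in hypothalamus, with no overlap.

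The widest differences were between peroxins. Pex7, the receptor for the N-terminal peroxisomal targeting signal, read 8.48, 9.11, 11.1 and 9.68 FPKM in hippocampus and 5.24, 3.87 and 3.42 FPKM in hypothalamus, a difference of 1.42. Pex14, the docking protein of the import machinery, read 14.5, 12.8, 11.6 and 9.26 FPKM in hippocampus and 27.0, 33.9 and 50.5 FPKM in hypothalamus, a difference of −1.27. Pex7 and Pex14 therefore differed in opposite directions, each with no overlap. Pex11a, which promotes peroxisome division, overlapped, at 11.5, 6.05, 10.7 and 17.4 FPKM in hippocampus and 9.35, 9.04 and 11.7 FPKM in hypothalamus. Pex19, the chaperone of peroxisomal membrane proteins, read 11.7, 11.9, 12.6 and 23.7 FPKM in hippocampus and 27.7, 25.4 and 25.5 FPKM in hypothalamus. Hippocampus replicate 4 came near the hypothalamic values of Pex19 and overlapped them after rescaling. Pex19 is split over 3 loci in both tables, and after adding these up every hypothalamus library was higher, so its level per locus is uncertain.

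**Figure D3:**
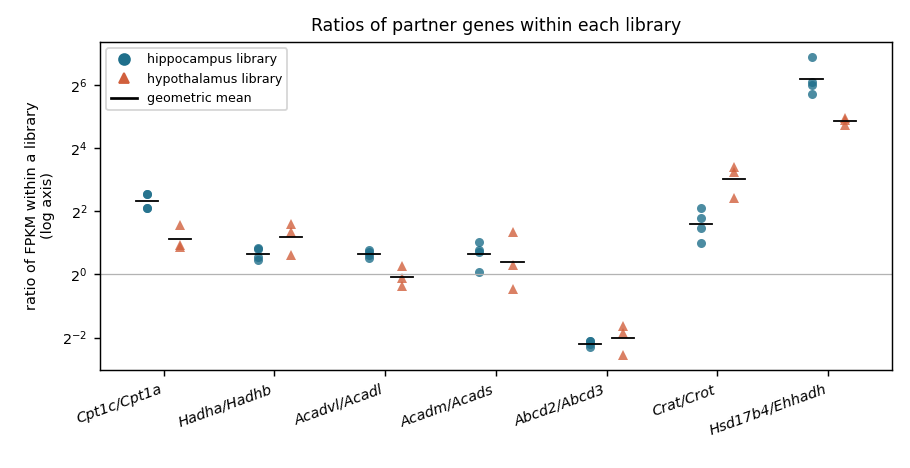
Ratio of FPKM of a gene pair within each library (y axis, log scale) for 7 pairs (x axis), with circles for the 4 hippocampus libraries, triangles for the 3 hypothalamus libraries and a bar at the geometric mean. Ratios of Cpt1c to Cpt1a (4.27 to 5.88 against 1.82 to 2.93) and of Crat to Crot (2.01 to 4.25 against 5.39 to 10.5) do not overlap between tissues, and the pair of Pex5 and Pex7 is left out because Pex5 is near 0.

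Ratios within a library removed the dependence on scaling for 8 pairs of related members, and 5 of the pairs separated the tissues. How often gene pairs in general separate was not computed, so this count has no background, and 52.6% of single symbols separated. Hsd17b4 to Ehhadh, 1 of the 5, rests on Ehhadh, which passed the filter through hypothalamus alone. Beside those given above, Acadvl exceeded Acadl 1.44 to 1.69 times in hippocampus, while the ratio was 0.773 to 1.19 in hypothalamus. Pex5 to Pex7 separated as well, at values that rest on the near-zero Pex5. Acadm to Acads and Abcd2 to Abcd3 overlapped, the latter at 0.202 to 0.232 in hippocampus and 0.171 to 0.323 in hypothalamus. Without hypothalamus replicate 1, 7 pairs separated the tissues.

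Replicates of a tissue were close for most members. The median SD of log2(FPKM + 1) was 0.178 over 27 members in hippocampus, beside 0.227 over all 10309 symbols of at least 1 FPKM, and 0.229 over 29 members in hypothalamus, beside 0.246 over 10757 symbols. The highest library was under 2 times the lowest for 25 of 27 members in hippocampus (92.6%, against 80.8% of all symbols) and for 27 of 29 in hypothalamus (93.1%, against 84.6%). The exceptions were Pex11a and Pex19 in hippocampus, at 2.88 and 2.03 times, and Acadm and Cpt2 in hypothalamus, at 2.22 and 2.04 times.

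Certain libraries were high or low for many members at once. Hypothalamus replicate 1 was the highest library for 18 of 29 members (62.1%), against 44.3% of all symbols, and hypothalamus replicate 3 was the lowest for 16 (55.2%, against 31.6%). In hippocampus, replicate 3 was the highest library for 13 of 27 members (48.1%, against 18.3%) and replicate 4 the lowest for 13 (48.1%, against 36.7%). Replicate 3 was also the hippocampus library with the most choroid plexus RNA: the 4 markers found in both tables summed to 4729, 34.5, 5926 and 2045 FPKM in replicates 1 to 4, with none at 0. In the hypothalamus libraries these markers summed to 33.4 to 70.6 FPKM. The part of choroid plexus RNA in the member levels was not tested.

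**Figure D4:**
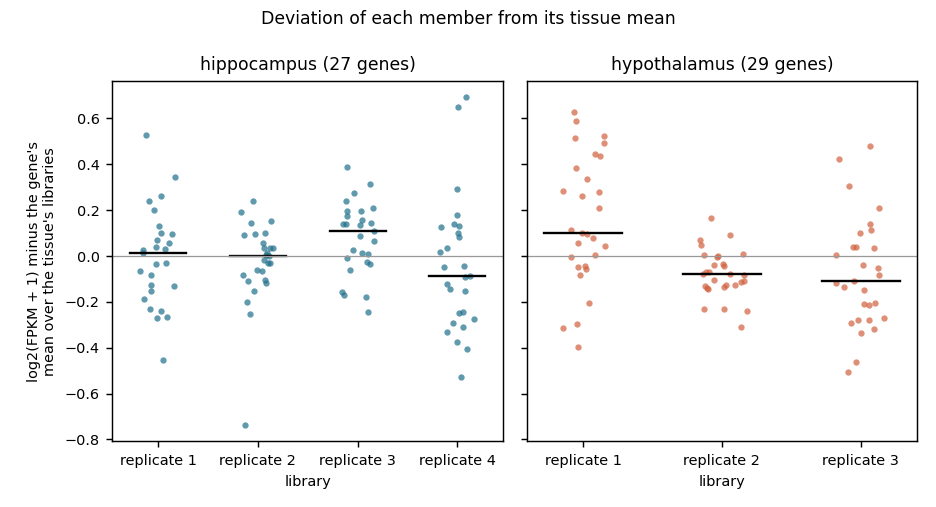
Deviation of each member's log2(FPKM + 1) from its mean over the libraries of the tissue (y axis), by library (x axis), for 27 members in hippocampus and 29 in hypothalamus. Each point is a gene and the bar is the median over genes; hippocampus replicate 3 and hypothalamus replicate 1 sit above 0 and hippocampus replicate 4 and hypothalamus replicates 2 and 3 below it.

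Cell type markers also differed between the tissues. The sums below are FPKM as deposited, whereas the calls use rescaled values. Rescaling multiplied the hippocampus libraries by 2.81 to 2.92 and the hypothalamus libraries by 2.25 to 2.38. With these factors the microglial and the ependymal sums of the tissues overlap, although they do not as deposited. Of 5 neuronal markers, 4 were higher in every hippocampus library, and the list summed to 1430 to 2340 FPKM in hippocampus and 844 to 1018 FPKM in hypothalamus. Of 6 astrocyte markers, Aqp4 and Aldh1l1 were higher in hypothalamus and Slc1a2 in hippocampus, and the list summed to 1251 to 1466 FPKM in hippocampus and 1131 to 1536 FPKM in hypothalamus. Oligodendrocyte markers (2 of 5 higher in each tissue) summed to 3718 to 4538 and 5691 to 7329 FPKM. Of 4 ependymal markers, 3 were higher in hypothalamus and Foxj1 in hippocampus, with sums of 57.0 to 72.7 and 77.2 to 126 FPKM. Microglial markers (1 of 5 higher in hippocampus, 2 in hypothalamus) summed to 83.3 to 111 and 123 to 128 FPKM. Endothelial markers (2 of 4 higher in hippocampus) summed to 85.8 to 129 and 52.1 to 77.1 FPKM. With loci summed, Rbfox3 and Cnp lost their separation towards hippocampus and Csf1r its separation towards hypothalamus, and Eno2 became higher in hippocampus. No marker of these lists was at 0 in any library, and the part of cell composition in the member differences was not tested.

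Other genes of these pathways were described from a list of 48 symbols, of which 42 were compared. Every hippocampus library lay higher for 10 of them (23.8%) and every hypothalamus library for 9 (21.4%), near the 28.2% and 24.4% of all symbols, and 23 overlapped. Ech1, a dienoyl-CoA isomerase for unsaturated chains, read 55.1, 47.5, 56.5 and 43.0 FPKM in hippocampus and 241, 188 and 205 FPKM in hypothalamus, a difference of −1.76. Ech1 was several times higher in the hypothalamus libraries, a wider difference than that of any member. Acot13, a thioesterase, read 10.2 ± 1.41 FPKM (SD, n = 4, hippocampus) against 59.6 ± 6.54 FPKM (SD, n = 3, hypothalamus). Acot8, the peroxisomal thioesterase, went the other way at 37.6 ± 11.2 against 12.8 ± 2.62 FPKM. Acot8 has 2 loci in each table, so its level per locus is uncertain, and it stayed higher in every hippocampus library with loci summed.

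By subgroup, the other mitochondrial genes were higher in hippocampus for 3 and in hypothalamus for 5 of 14, and the other peroxisomal genes for 3 each of 14. Of 10 other peroxins, 3 were higher in hippocampus and 7 overlapped. The remaining 4 compared genes gave 1 in each direction. With loci summed, Pex3 and Pex13 went from overlapping to higher in hypothalamus, and Ivd and Oxct1 from overlapping to higher in hippocampus. These counts stand beside 28.2% of all symbols higher in hippocampus and 24.4% higher in hypothalamus.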

How the data were processed

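RNA sequencing libraries of DHA-fed male rats were used, 4 of hippocampus and 3 of hypothalamus, grouped by their titles. The authors deposited FPKM, 1 table per tissue, with a locus identifier, a symbol and a status word for each value, per the file headers. TopHat, TopHat2, Bowtie, Bowtie2, Cufflinks, Cuffdiff and the build rn5 are named in the submitters' processing notes, without roles or versions. Strand handling and annotation are not given in the sources used here. Depth is unknown, so no counting interval was computed.

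A locus was dropped from a tissue if any of its values there lacked the status OK (86 loci in hippocampus, 24 in hypothalamus), none of them of a member. The locus with the highest mean was taken per symbol. Locus numbers differ between the tables, which were treated as separate runs: values were rescaled to a common sum, and no test was run across tables. All members are named. Values in every library are given for members whose libraries did not overlap, for the most abundant and for the most variable; of the other oxidation genes, the 5 called genes with the widest difference were to be named, and some of these are not reported here. The members and gene lists were chosen with earlier results of these data known. Alternatives were other pseudocounts (0.1 and 5), scalings and filters, loci summed and libraries left out. Python 3.11.15, numpy 2.4.6 and pandas 2.3.3 were used.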

Additional observations from a re-analysis of the deposited data

Results flagged for a closer look

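In hippocampus, with 4 libraries, 47 results were examined for 1 library far from the rest, measured as its distance to its neighbour over the full spread (Dixon's ratio), and 4 exceeded the critical value. Chance flags about 1 in 20 such groups, or 2.4 here, and the results are not independent. Acads was highest in replicate 1, at 12.7 FPKM against 7.25 to 7.55 FPKM, a ratio of 0.945. Etfa was lowest in replicate 1, at 16.6 FPKM against 21.0 to 21.9 FPKM, a ratio of 0.835, and the sum of Etfa and Etfdh, 29.0 FPKM in that library against 35.0 to 36.2 FPKM, had a ratio of 0.838. Pex19 was highest in replicate 4, at 23.7 FPKM against 11.7 to 12.6 FPKM, a ratio of 0.925. Acads, Etfa and Etfdh have a single locus in the table, whereas Pex19 has 3.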

How the results depend on the processing

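No paired analysis was possible because the comparison of the tissues comes from no test and the labels do not say which libraries share an animal. Of 475 values of single members over the alternatives, 462 moved by less than the SD between replicates, 13 moved by more and none of a called member changed sign. The 13 were Hadha under 3 scalings, Acox3 and Abcd2 under FPKM as deposited and upper-quartile scaling, Cpt1a, Acadvl, Eci1, Etfa and Pex7 under FPKM as deposited, and Ehhadh with a pseudocount of 5. The count of members higher in hypothalamus ranged from 10 to 11 with 1 library left out and the count higher in hippocampus from 6 to 11, the latter without hypothalamus replicate 1 (36.8% of all symbols). Without replicate 1 of both tissues, the hippocampus count was also 11 (40.9% of all symbols), with loci summed (40.1%) or not, and all 8 partner ratios separated the tissues (5 to 7 with 1 library left out). No share over all gene pairs was computed for the ratios. Combining loci summed with replicate 1 left out was chosen after seeing the data. The 2-fold count towards hippocampus was 1 under FPKM as deposited, upper-quartile and median scaling, 4 without replicate 1 of both tissues with or without loci summed, and 2 to 4 with 1 library left out. The shares of all symbols under these settings were 8.64%, 10.4%, 10.9%, 18.1% (17.8% with loci summed) and 13.8% to 16.9%, beside 14.5% with all libraries rescaled to a common sum. The 2-fold count towards hypothalamus was 4 under FPKM as deposited, 3 under upper-quartile scaling, 2 without replicate 1 of both tissues with or without loci summed, and 1 to 2 with 1 library left out. Here the shares of all symbols were 16.9%, 13.9%, 15.9% (16.7% with loci summed) and 13.1% to 15.2%, beside 13.4%. The median difference of the members, 0.02, lay near 0 and its sign was not stable: it was −0.27 with FPKM as deposited, −0.14 with upper-quartile scaling, −0.11 with median scaling, −0.11 without a filter on low values and −0.020 with loci summed, and −0.11 to 0.14 with 1 library left out. The median of all symbols moved with the scaling too, from 0.05 to −0.21 with FPKM as deposited. With 1 hypothalamus library left out, the summed hypothalamic level ran from 846 to 943 FPKM and the hypothalamic median SD from 0.123 to 0.292. The causes of these shifts were not tested. With unknown depth, the members near 0 cannot be given a detection limit.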

Other observations

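Eno2, a neuronal marker named after its values were seen, was listed at 5.28, 4.61, 2.17 and 0.611 FPKM in hippocampus and at 1.21, 0.948 and 1.15 FPKM in hypothalamus, while Snap25, another neuronal marker, read 558 to 889 FPKM and 323 to 432 FPKM. Low values at widely used genes in these tables are therefore not limited to Echs1 and Pex5.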
